A study of Mus musculus with 7 samples.

Results

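The genes described here are those of glycolysis, the breakdown of glucose to pyruvate and lactate, and genes induced when oxygen is short. They were chosen by a list of 37 symbols, of which 21 belong to glucose import, the glycolytic steps and lactate handling, 15 are known to be induced in hypoxia, and 1 is Hif1a, the oxygen-regulated subunit of the hypoxia-inducible factor. An array gene was measured where at least 1 probe set, a group of probes for a transcript, carried that symbol alone, and of several such probe sets the brightest on average stood for the gene. This gave 33 members, 18 of glycolysis, 14 induced in hypoxia and Hif1a, among 18193 genes. Gpi1, Gapdh, Eno1 and Bnip3l had no such probe set and were not tested, and Gapdh is described below only on the control probe sets of the array.

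RNA came from tumour cells sorted by flow cytometry for the surface antigens CD34 and Epcam, taken from mouse skin tumours raised with DMBA, a carcinogen, and TPA, a tumour promoter. Carcinomas, the malignant form, gave 4 arrays and papillomas, the benign form, gave 3, and the labels give the same chemical treatment for all 7 arrays. The sample descriptions place the gene name Nr2f2 before the tumour type in all arrays, and the labels used here give no genotype, strain, age or number of animals, so the p-values rest on sample-to-sample spread alone, which may be technical. The title of 1 array of each tumour type ends in GFP where the others have a number, which the labels do not explain, and the other 5 arrays are called untagged below.

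Glycolysis takes up glucose through membrane transporters, traps it as a phosphate, splits it and recovers energy on the way to pyruvate, which is either burned in mitochondria or reduced to lactate and exported. When oxygen falls, prolyl hydroxylases of the Egln family stop marking the Hif1a protein for destruction, and the stabilised factor raises transcription of glycolytic enzymes, of genes that restrain mitochondria and of genes of matrix, acid balance and vessels. Solid tumours, skin carcinomas among them, are known for glucose use of this kind and for poorly supplied regions, and because Hif1a is controlled mainly as a protein, its RNA level does not report the activity of the factor.

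The DNA letters that the factor binds contain ACGTG or GCGTG, and the stretch before the start site was searched for them because the list joins genes that this factor is known to induce. RefSeq promoter windows of assembly GRCm38.p6 were at hand for 34 of the 37 genes, and not for Slc2a3, Ndrg1 and Bnip3l. In the 250 bases before the most upstream start site, ACGTG on either strand was present in 8 of 20 glycolysis genes (40.0%), in 9 of 13 hypoxia-induced genes (69.2%) and in Hif1a, against 16.5% of 27025 genes. GCGTG was present in 9 of 20 (45.0%), in 10 of 13 (76.9%) and not in Hif1a, against 28.3% of the same 27025 genes. These are all RefSeq genes with a window, not the 18193 array genes. The windows of the members were also richer in G and C. The median was 58.8% in the glycolysis genes and 68.4% in the hypoxia-induced genes, against 52.0% over the 27025 genes. The part of base composition in the shares with ACGTG or GCGTG was not tested. CACGTG, which holds ACGTG on each strand and is counted in it as 2 matches, was present in 3 of the 20 glycolysis windows (15.0%), in 1 of the 13 hypoxia-induced windows (7.69%) and in 6.04% of all windows.

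The stretches shown are those of the 3 members with ACGTG among the 5 that differed by the GFP tag (Slc16a1, Slc2a1 and Hk2), of Ldha, which held the most matches (5), and of Car9 and Bnip3 as hypoxia-induced genes. Each is written 5′ to 3′ on the strand of the gene, runs at most 30 bases beyond the matches and ends before the start site, and the capitals mark ACGTG or its reverse complement. They lie at chr3:104638434-104638499 (plus strand) for Slc16a1, chr4:119108679-119108743 (plus strand) for Slc2a1, chr6:82774472-82774704 (minus strand) for Hk2, chr7:46845629-46845803 (plus strand) for Ldha, chr4:43506978-43507025 (plus strand) for Car9 and chr7:138909579-138909644 (minus strand) for Bnip3, upstream of the annotated transcript in each case. Tpi1 and Aldoc held no ACGTG in this window.
Slc16a1: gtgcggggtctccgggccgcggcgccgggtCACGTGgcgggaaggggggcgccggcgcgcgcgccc
Slc2a1: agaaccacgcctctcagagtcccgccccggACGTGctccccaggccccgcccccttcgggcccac
Hk2: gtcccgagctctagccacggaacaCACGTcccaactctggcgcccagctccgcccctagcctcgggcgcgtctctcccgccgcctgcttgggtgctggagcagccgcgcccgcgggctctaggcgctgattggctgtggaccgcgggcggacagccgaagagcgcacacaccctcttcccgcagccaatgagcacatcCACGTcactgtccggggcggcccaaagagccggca
Ldha: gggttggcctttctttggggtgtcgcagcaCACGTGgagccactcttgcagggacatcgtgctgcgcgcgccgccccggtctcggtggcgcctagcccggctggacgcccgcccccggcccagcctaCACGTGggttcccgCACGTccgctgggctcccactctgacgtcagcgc
Car9: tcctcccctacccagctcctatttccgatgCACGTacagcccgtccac
Bnip3: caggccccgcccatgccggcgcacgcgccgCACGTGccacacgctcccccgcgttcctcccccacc

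Before the results, the arrays were compared among themselves. The GFP arrays stood apart from the others: all 15 endothelial markers passed the test of the tag and were higher there, with a log2 of their summed signal of 15.29 to 15.36 against 9.71 to 10.29 in the untagged arrays, and 12 of 14 fibroblast markers were higher (15.47 to 16.28 against 10.30 to 12.96). Myeloid markers were higher for 6 of 12 (11.63 to 11.71 against 8.99 to 11.63), lymphoid markers for 3 of 6 (7.96 to 8.46 against 7.38 to 7.73) and red cell markers for 1 of 3 (6.84 to 7.41 against 6.14 to 6.72). Of the 12 markers of keratinocytes and of the sort, 7 were lower and 1, Cd34, was higher (summed signal 15.03 to 15.04 against 15.56 to 16.11), and the mean of Epcam was 8.94 under the tag and 11.39 without it. Of 9 immediate early genes, which respond to cell isolation, 5 were lower (14.80 to 14.94 against 15.08 to 15.49). Over all genes the test of the tag called 11.9% higher and 7.93% lower. Control probe sets of the array read Gapdh and actin near the 3′ and the 5′ end of their RNA. The 3′ minus 5′ gap of Gapdh was 3.19 for each GFP array, while untagged arrays ran from -0.04 to 0.06. For actin the gap reached 2.21 (carcinoma GFP) and 2.58 (papilloma GFP), while untagged arrays ran from 0.512 to 0.865. Array signal has no true 0, so no marker can be called absent, and in sorted bulk samples fewer cells of a type and less RNA per cell cannot be told apart. The untagged arrays ranged from 7.32 to 7.79 in their upper quartile over all probe sets, with papilloma 2 lowest and papilloma 1 highest. The precision is limited by the number of arrays. By tumour type limma called 0 markers (1, a myeloid marker, at an unadjusted p under 0.05). The carcinoma mean was higher for 11 of 12 keratinocyte markers (median difference 0.30, and 0.18 among untagged arrays) and for 0 of 15 endothelial markers (median -0.54, and -0.15 among untagged arrays). The carcinoma mean was lower for 11 of 14 fibroblast markers, with a median of -0.51 over all arrays, -0.60 among untagged arrays and 1.04 within the GFP pair. Their part in the tumour type values below was not tested.

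No glycolysis gene passed the test between carcinoma and papilloma cells. Of the 18, the mean was higher in carcinoma for 9, against 46.9% of all genes, lower for 8 and equal to 4 decimals for Aldoa, with a median difference of 0.05 log2 units against -0.02 over all genes, and single genes ranged from -0.40 for Slc2a3 to 0.60 for Hk2. Limma called 0 of 33 members, where it called 0 of 18193 genes (background 0% higher and 0% lower), and 0 members had an unadjusted p under 0.05, against 0.616% of all genes. Groups did not overlap for 0 members in either direction, against a background of 0.506% of genes above and 0.912% below in carcinoma. In 17 alternative settings with a test, among them the fits without the GFP arrays, with the tag as a covariate and with the replicate number as a block, 0 member values were called. These values do not show that the tumour types were alike, since the standard errors of the members ranged up to 0.88. The fit has no term for the tag, so differences between GFP and untagged arrays enter these standard errors. The largest was that of Slc16a1, whose untagged arrays had an SD of 0.22.

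Among the glucose transporters, Slc2a1, the widespread transporter of growing epithelia, had log2 levels of 12.31, 12.63, 13.03 and 11.28 in carcinoma 1, 2, 3 and GFP, and of 12.57, 12.69 and 11.73 in papilloma 1, 2 and GFP. The tumour types overlapped, and the lowest array of each was the GFP array. The carcinoma mean was 12.31 ± 0.75 (SD, n = 4) and the papilloma mean 12.33 ± 0.52 (SD, n = 3). They differed by -0.02 (SE 0.45), and an exact two-sided permutation test over the arrays gave p = 0.943, where the smallest value possible is 0.0286. Slc2a3, a transporter of high affinity, had 6.14, 5.85, 6.02 and 7.28 in the carcinoma arrays and 6.10, 7.11 and 6.97 in the papilloma arrays in the same order. The difference of -0.40 (SE 0.42) came with overlapping groups, and papilloma 2 lay near the GFP arrays.

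Of the hexokinases, which trap glucose in the cell, Hk2, the form induced in growing and tumour cells, had 10.68, 10.36, 10.50 and 9.11 in carcinoma 1, 2, 3 and GFP and 10.34, 9.31 and 9.03 in papilloma 1, 2 and GFP. Carcinoma 1, 2 and 3 were all above the papilloma arrays, and carcinoma GFP was not. Carcinoma 2 (10.357) and papilloma 1 (10.344) were nearly level, so among untagged arrays the difference went with the low value of papilloma 2. The difference was 0.60 (SE 0.48) with all arrays, 0.69 among the untagged arrays and 0.08 within the GFP pair, and without the GFP arrays its unadjusted limma p was 0.0958, the smallest of the glycolysis and hypoxia-induced genes. Hk1, the housekeeping form, differed by -0.10 (SE 0.57). It was high in carcinoma 2 (10.14), papilloma 1 (10.42) and the GFP arrays (10.38 and 10.46), and lower in carcinoma 1 (9.36), carcinoma 3 (8.97) and papilloma 2 (8.58).

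The phosphofructokinases, which control the flow through the pathway, differed by -0.23 (SE 0.62) for the liver form Pfkl, -0.15 (SE 0.18) for the muscle form Pfkm and -0.32 (SE 0.29) for the platelet form Pfkp. Pfkp had 9.49, 10.30, 9.25 and 9.70 in the carcinoma arrays 1, 2, 3 and GFP and 10.34, 9.94 and 9.73 in the papilloma arrays 1, 2 and GFP, so carcinoma 2 lay among the papilloma arrays. Pfkl was high and low in the same arrays as Hk1, with 10.40 in carcinoma 2, 10.45 in papilloma 1 and 10.37 and 10.39 in the GFP arrays, against 8.83, 8.86 and 8.69 in carcinoma 1, carcinoma 3 and papilloma 2. The aldolases Aldoa and Aldoc, which split the sugar, differed by 0.00 (SE 0.26) and 0.28 (SE 0.67), and Tpi1, which makes both products of the split usable, by 0.50 (SE 0.64).

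In the steps that recover energy, Pgk1, Pgam1 and Eno2 differed by 0.11 (SE 0.20), 0.22 (SE 0.26) and 0.10 (SE 0.52). Pkm, a pyruvate kinase gene, had 11.97, 12.48, 11.91 and 12.07 in carcinoma 1, 2, 3 and GFP and 12.46, 11.56 and 11.65 in papilloma 1, 2 and GFP, a difference of 0.21 (SE 0.27). Papilloma 2 and papilloma GFP were lowest, and papilloma 1 lay with carcinoma 2 at the top. Ldha, the lactate dehydrogenase subunit that favours lactate formation, had 13.25, 13.36, 12.96 and 12.70 in the carcinoma arrays and 13.18, 12.79 and 12.45 in the papilloma arrays, a difference of 0.26 (SE 0.25) with overlapping groups.

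Ldhb, the subunit that favours the use of lactate, differed by -0.21 (SE 0.72) and was the member with the largest spread in carcinoma, 9.42 ± 1.25 (SD, n = 4). Its levels were 10.67, 10.20, 7.92 and 8.90 in carcinoma 1, 2, 3 and GFP and 9.78, 10.34 and 8.77 in papilloma 1, 2 and GFP. Carcinoma 3 was lowest on all 4 probe sets of the gene, with 7.92, 6.27, 6.83 and 6.53, while the other untagged arrays lay at or above 9.28 on each of them. Ldha in the same array lay at 12.96, within the untagged range of 12.79 to 13.36. The lactate transporters Slc16a1 and Slc16a3 differed by 0.18 (SE 0.88) and -0.37 (SE 0.66).

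**Figure D1:**
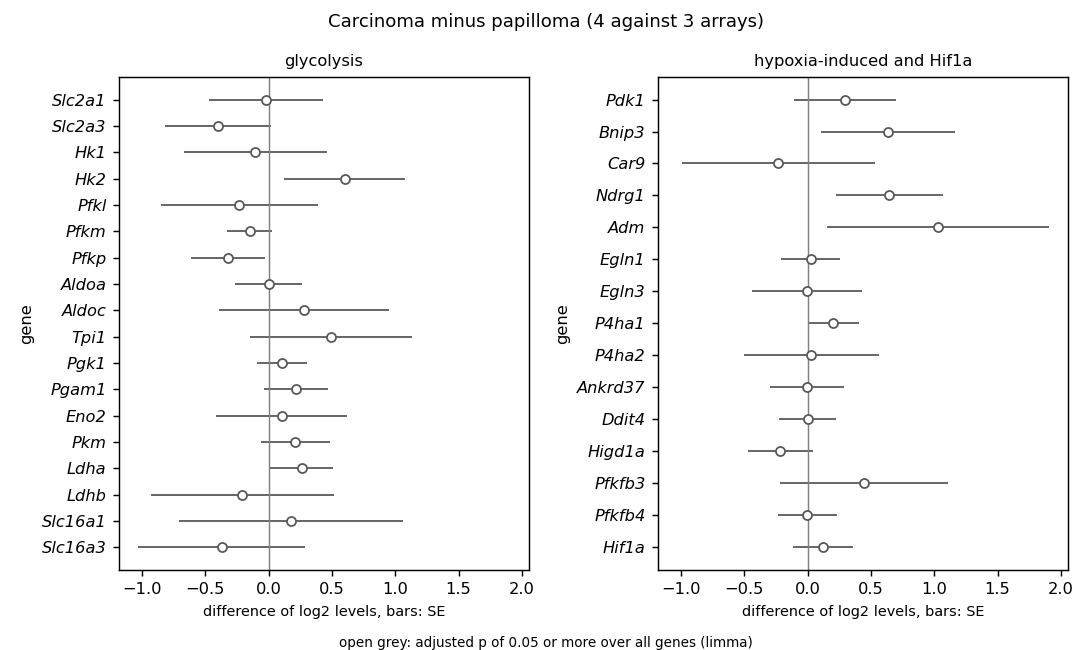
Carcinoma minus papilloma for the 33 members, glycolysis genes on the left and hypoxia-induced genes with Hif1a on the right, as differences of log2 levels (horizontal axis) with standard errors of the limma fit (bars). No gene passed the threshold, and the values ran from -0.40 for Slc2a3 to 1.03 for Adm.

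No hypoxia-induced gene passed the test between the tumour types either. The carcinoma mean was higher for 9 of 14 and lower for 5, with a median difference of 0.03, and limma called 0 of 14 (0 at an unadjusted p under 0.05). Leaving out papilloma 1, which was the highest untagged array for 8 of these genes, moved the median to 0.31, and leaving out papilloma 2, the lowest untagged array for 8 of them, moved it to -0.07. Without papilloma 1 the glycolysis median was 0.29, without papilloma GFP it was -0.11, and without carcinoma 2 it was -0.11.

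Among the genes that shift metabolism, Pdk1, a kinase that inhibits pyruvate dehydrogenase, differed by 0.30 (SE 0.40). Pfkfb3 and Pfkfb4, which make the activator of phosphofructokinase, differed by 0.45 (SE 0.66) and 0.00 (SE 0.23). Bnip3, which removes mitochondria, had 10.48, 10.79, 10.63 and 9.69 in carcinoma 1, 2, 3 and GFP and 10.93, 9.62 and 8.74 in papilloma 1, 2 and GFP, a difference of 0.64 (SE 0.53). Papilloma 1 was the highest of all arrays, and the other papilloma arrays lay below the carcinoma arrays. Higd1a, a mitochondrial survival protein, had 11.38, 11.67, 11.74 and 11.04 against 11.76, 12.00 and 11.26 and differed by -0.21 (SE 0.26). Ddit4, an inhibitor of the growth kinase mTOR, had 12.04, 12.15, 12.58 and 11.91 against 12.31, 12.32 and 11.88, with a difference of 0.00 (SE 0.22).

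Ndrg1, a stress-response gene of differentiating epithelia, had the smallest unadjusted limma p-value of the members (0.170, adjusted 1). Its levels were 11.22, 11.70, 11.97 and 11.81 in carcinoma 1, 2, 3 and GFP and 11.70, 10.01 and 11.38 in papilloma 1, 2 and GFP. The difference of 0.65 (SE 0.42) went with the low value of papilloma 2, since the other papilloma arrays lay within the carcinoma range. Its 5 probe sets gave differences of 0.43 to 0.84.

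Of the secreted, surface and matrix genes, Adm, a vasodilator peptide, showed the largest mean difference, 1.03 (SE 0.88), with levels of 8.42, 9.87, 11.21 and 10.69 in carcinoma 1, 2, 3 and GFP and of 9.24, 7.42 and 10.39 in papilloma 1, 2 and GFP. Carcinoma 1 lay below papilloma 1 and papilloma GFP. Car9, a carbonic anhydrase of the cell surface used as a hypoxia marker, had 7.30, 8.55, 5.85 and 7.12 against 8.81, 7.05 and 6.45, a difference of -0.23 (SE 0.76), with carcinoma 3 lowest. P4ha1 and P4ha2, subunits of collagen prolyl hydroxylase, differed by 0.20 (SE 0.20) and 0.03 (SE 0.53), and P4ha1 had 8.73, 8.89, 8.97 and 9.22 in carcinoma 1, 2, 3 and GFP and 9.01, 8.49 and 8.74 in papilloma 1, 2 and GFP. Its tumour types overlapped, with papilloma 2 lowest and carcinoma GFP highest. The oxygen sensors Egln1 and Egln3 differed by 0.02 (SE 0.24) and -0.01 (SE 0.43), and Ankrd37, an ankyrin repeat protein, by 0.00 (SE 0.29).

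Hif1a had 12.05, 12.27, 12.66 and 11.94 in carcinoma 1, 2, 3 and GFP and 12.01, 12.42 and 11.89 in papilloma 1, 2 and GFP. Carcinoma 3 and papilloma 2 were highest, and the GFP arrays lowest. The carcinoma mean was 12.23 ± 0.32 (SD, n = 4) and the papilloma mean 12.11 ± 0.27 (SD, n = 3). They differed by 0.12 (SE 0.24), and an exact two-sided permutation test gave p = 0.571. Adjusted over these 2 exact permutation tests by the Benjamini-Hochberg method, both p-values were 0.943.

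**Figure D2:**
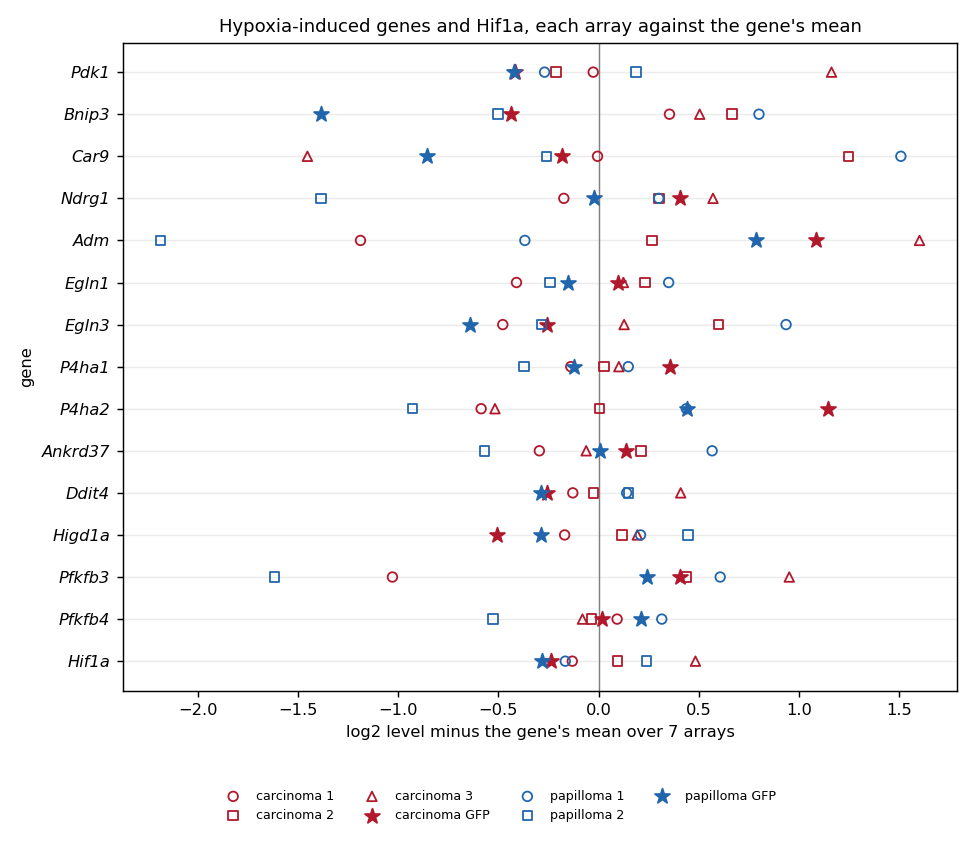
Log2 level of each hypoxia-induced gene and of Hif1a in the 7 arrays, minus the mean of that gene over the arrays (horizontal axis). Red marks carcinoma, blue papilloma and filled stars the GFP arrays, and papilloma 2 (open blue square) was the lowest untagged array for 8 of the 14 hypoxia-induced genes.

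Among the untagged arrays, papilloma 2 was the lowest untagged array for 18 of 33 members (54.5%), against 27.6% of all genes, and the highest for 2 (6.1%), against 31.1% of all genes. The glycolysis genes lowest there numbered 10 of 18, among them Hk1, Hk2, Tpi1, Pgam1, Pkm and Ldha. Papilloma 1 was highest for 14 members (42.4%), against 22.4% of all genes, and carcinoma 3 for 9 (27.3%), against 13.4%, among them Slc2a1, Pdk1, Ddit4, Adm and Hif1a. Carcinoma 2 was highest for 6 members (18.2%), all of glycolysis, against 17.3% of all genes, and carcinoma 1 for 2 (6.1%), against 15.9%. The lowest untagged array was carcinoma 1 for 7 members (21.2%), against 23.8% of all genes, and carcinoma 3 for 5 (15.2%), against 24.7%. Papilloma 2 was also the array with the lowest upper quartile and the lowest untagged array for 7 of 12 keratinocyte markers, and the part of either in the member levels was not tested. The widest untagged ranges belonged to Adm (3.79), Car9 (2.96) and Ldhb (2.75), and the narrowest to Pfkm (0.42), Pgk1 (0.45) and Aldoa (0.50).

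**Figure D3:**
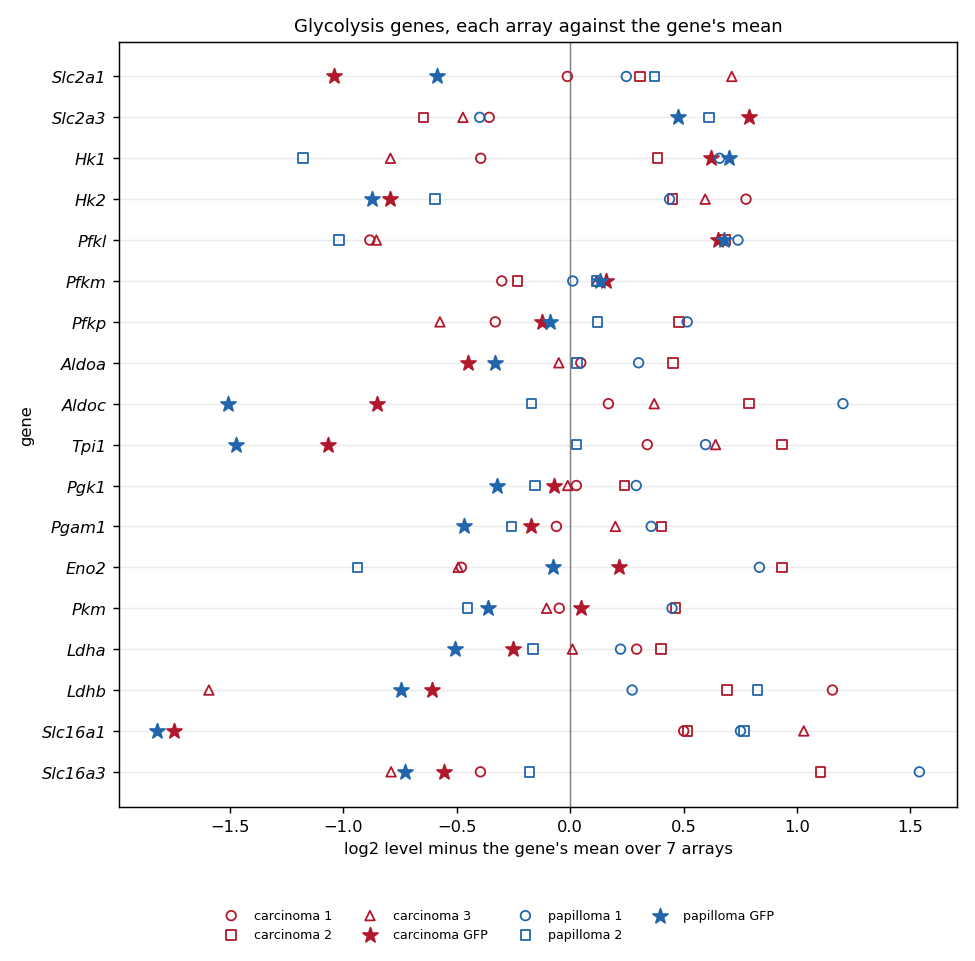
Log2 level of each glycolysis gene in the 7 arrays, minus the mean of that gene over the arrays (horizontal axis). Red marks carcinoma, blue papilloma and filled stars the GFP arrays, which lay below all 5 untagged arrays for 7 of 18 genes, with the widest gap for Slc16a1.

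Some glycolysis genes were lower in the GFP arrays. With tumour type as a covariate, limma called 5 of 18 lower in the GFP arrays and 0 higher, where it called 7.93% of all genes lower and 11.9% higher. It called 0 of 14 hypoxia-induced genes in either direction, and not Hif1a. At an unadjusted p under 0.05 there were 8 of 18 glycolysis genes and 3 of 14 hypoxia-induced genes (Bnip3, Higd1a and P4ha2), against 32% of all genes. The median coefficient of the tag was -0.47 log2 units over the glycolysis genes and 0.03 over the hypoxia-induced genes, against -0.05 over all genes. With probe sets free of the _x_at, _s_at and _a_at endings where a gene had one, the medians were -0.53 and -0.48, so the sign of the hypoxia-induced median turned and the lists lay close. With the arrays shifted to a common median they were -0.70 and -0.20, against -0.29 over all genes. With genes below the median gene in signal left out, limma called 1324 of 9097 genes lower and 1229 higher. Of the glycolysis genes, which lost Slc2a3, Eno2 and Slc16a3 in this way, it called 5 lower and 0 higher. Lower calls were thus more common among brighter genes than the 7.93% over all genes. In the fit first described the coefficient was below 0 for 13 of 18 and 7 of 14, against 54.7% of all genes. Both GFP arrays lay below every untagged array for 7 of 18 glycolysis genes and 3 of 14 hypoxia-induced genes, and above for 1 and 1, against a background of 19.9% of genes below and 21% above. The lower signal of keratinocyte markers and the higher endothelial and fibroblast signal of these arrays stand beside all these values, and their part was not tested. So does the wider gap between the 3′ and 5′ controls of Gapdh and actin given above. The part of RNA length in the calls was not tested either.

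Slc16a1, the lactate and pyruvate transporter, had 9.22 and 9.14 in carcinoma GFP and papilloma GFP, against 11.46, 11.48 and 11.99 in the untagged carcinoma arrays and 11.71 and 11.73 in the untagged papilloma arrays. The untagged arrays spanned 0.53 log2 units, and the GFP arrays lay more than 2 units below them. The coefficient was -2.50 (SE 0.20, limma adjusted p = 0.000457), with -2.43 within carcinoma and -2.58 within papilloma. It was the only called member that passed in all 15 alternative settings with a test, where its adjusted p ranged from 3.39e-05 to 0.0153.

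Tpi1 had 11.00 and 10.59 in carcinoma GFP and papilloma GFP, against 12.40, 13.00, 12.70, 12.66 and 12.09 in carcinoma 1, 2 and 3 and papilloma 1 and 2, a coefficient of -1.74 (SE 0.24, limma adjusted p = 0.00368). The groups did not overlap, and the gap between them exceeded 1 unit. Its 3 probe sets gave coefficients from -1.74 to -0.85. The call was lost without carcinoma GFP (-1.79, adjusted p = 0.0669), a fit that rests on 1 GFP array, and adjusted p over the alternatives ranged from 0.000248 to 0.0669.

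Slc2a1 had 11.28 and 11.73 in the GFP arrays and at least 12.31 in the others, a coefficient of -1.15 (SE 0.24, limma adjusted p = 0.0183). Its 3 probe sets gave coefficients of -1.15, -1.56 and -2.27. The call was lost when either GFP array was left out, with -0.90 and an adjusted p of 0.265 without carcinoma GFP, and with -1.38 and 0.0717 without papilloma GFP. The adjusted p over the alternatives ranged from 0.00173 to 0.265. With the probe set free of the _a_at ending the coefficient was -2.27.

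Aldoc, the aldolase first known from brain, had 6.73 and 6.08 in carcinoma GFP and papilloma GFP and 7.75, 8.37, 7.96, 8.79 and 7.42 in carcinoma 1, 2 and 3 and papilloma 1 and 2, a coefficient of -1.64 (SE 0.40, limma adjusted p = 0.0313). The groups did not overlap. Its other probe set gave -0.50, and the call was lost on it (adjusted p = 0.459), on the mean of both (-1.07, adjusted p = 0.120), and when carcinoma 2 (0.0702), carcinoma GFP (0.143) or papilloma GFP (0.263) was left out. Hk2, at 9.11 and 9.03 in the GFP arrays and 9.31 in papilloma 2, was called with -1.11 (SE 0.31, limma adjusted p = 0.0482). Its call was lost without carcinoma 1 (limma adjusted p = 0.0935), carcinoma 2 (0.0924), carcinoma 3 (0.0797) or papilloma 1 (0.0786). It was also lost when probe sets free of the _x_at, _s_at and _a_at endings were preferred for all genes (0.0506). The fits that keep 1 GFP array lost the call too, with a coefficient of -0.79 without carcinoma GFP and -1.40 without papilloma GFP.

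The other glycolysis genes did not pass. Ldha had a coefficient of -0.51 (SE 0.19, limma adjusted p = 0.122) with the GFP arrays below all others, Aldoa -0.55 (SE 0.20), Pgam1 -0.43 (SE 0.23), Pgk1 -0.27 (SE 0.19) and Pkm -0.20 (SE 0.30). Coefficients above 0 were those of Slc2a3 (0.85, SE 0.33), Hk1 (0.92, SE 0.52), Pfkl (0.92, SE 0.59), Pfkm (0.19, SE 0.19) and Eno2 (0.11, SE 0.57). With the probe set of Slc2a3 free of the _x_at, _s_at and _a_at endings, a dim one, the sign turned to -0.78 and the gene was called lower (adjusted p = 0.0252). With the probe set used here it was called higher without papilloma 2 (1.12, adjusted p = 0.0114) and with array weights (1.09, adjusted p = 0.00605). Ldhb had -0.98 (SE 0.71), and without carcinoma 3 it was called, with -1.41 (adjusted p = 0.0142).

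Of the hypoxia-induced genes Bnip3 came nearest to the threshold, at 9.69 and 8.74 in carcinoma GFP and papilloma GFP against 9.62 to 10.93 in the untagged arrays (-1.22, SE 0.36, limma adjusted p = 0.0567). It was called lower in 7 of 15 alternatives, without papilloma 1 (adjusted p = 0.0233) and without papilloma 2 (0.0236) among them. Higd1a had -0.59 (SE 0.18, adjusted p = 0.0655), with the GFP arrays below all others on the probe set used and a positive coefficient on its other 2 probe sets (0.84 and 0.47). P4ha2 had 9.45 and 8.75 in the GFP arrays and 7.72, 8.31, 7.79, 8.75 and 7.38 in carcinoma 1, 2 and 3 and papilloma 1 and 2, with papilloma GFP level with papilloma 1. The coefficient was 1.13 (SE 0.41, adjusted p = 0.108). Without papilloma 1 it was 1.46 and called higher (adjusted p = 0.0126). Ddit4 had -0.39 (SE 0.20), Adm 1.43 (SE 0.81), Car9 -0.76 (SE 0.80) and Hif1a -0.35 (SE 0.22), none of which passed.

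**Figure D4:**
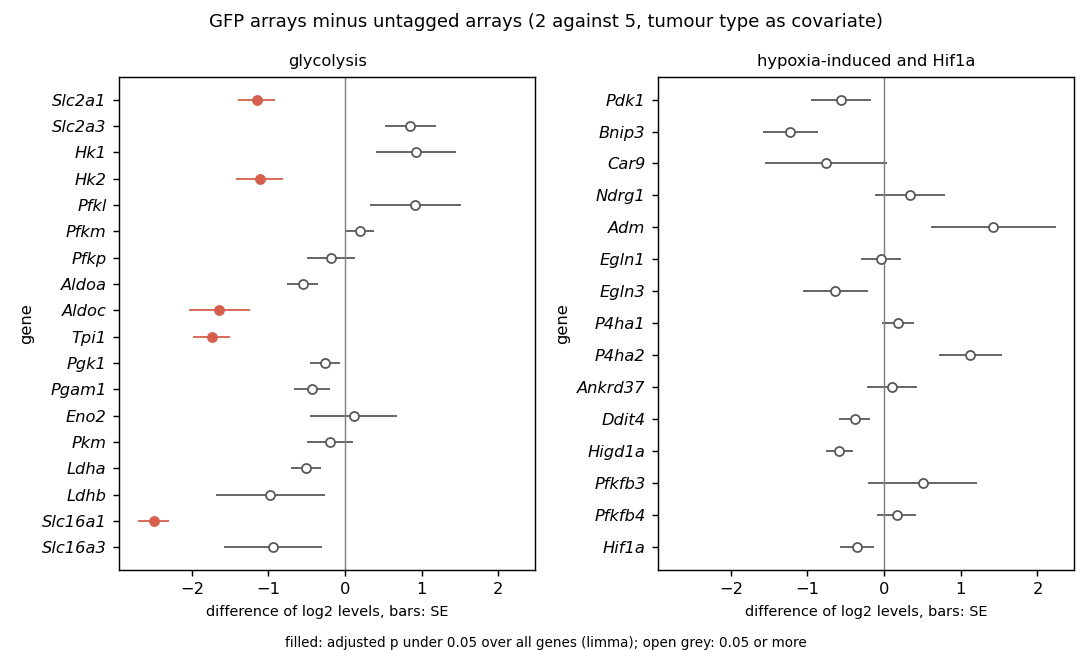
GFP arrays minus untagged arrays for the 33 members, fitted with tumour type as a covariate, as differences of log2 levels (horizontal axis) with standard errors (bars). Filled points passed an adjusted p of 0.05 over all genes, and these are Slc16a1, Tpi1, Slc2a1, Aldoc and Hk2, all below 0.

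Probe sets of the same gene differed in the GFP arrays, and so did the control probe sets that read Gapdh, the glycolytic dehydrogenase, at different places along its RNA. On the 3′ control Gapdh had 13.22, 13.68, 13.42 and 12.94 in carcinoma 1, 2, 3 and GFP and 13.45, 12.92 and 12.89 in papilloma 1, 2 and GFP. Here the GFP arrays lay beside or just below papilloma 2. In the GFP arrays it had on the middle control 11.86 and 11.63 against 12.62 to 13.58 in the others, and on the 5′ control 9.74 and 9.70 against 12.86 to 13.69. The mean difference was therefore -0.43, -1.41 and -3.61 from the 3′ to the 5′ end of 1 transcript. The 3′ and 5′ controls of actin also lay further apart under the tag, as given above. Of the 20 members with more than 1 probe set, 10 had coefficients of the tag with both signs and 12 had a span above 1 log2 unit. Hif1a had -0.35, 0.10 and -0.06 on 3 probe sets and 2.41 on the remaining one, where the GFP arrays had 9.11 and 9.37 against 6.39 to 8.01. Adm had 1.43 and -0.57, and Aldoa ran from -1.96 to -0.31 over 5 probe sets. For Slc2a1, Tpi1, Aldoc and Slc16a1 all probe sets lay below 0, and Hk2 had 1 probe set. The place of these probe sets along their transcripts was not analysed here, and the part of RNA length in the differences was not tested.

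**Figure D5:**
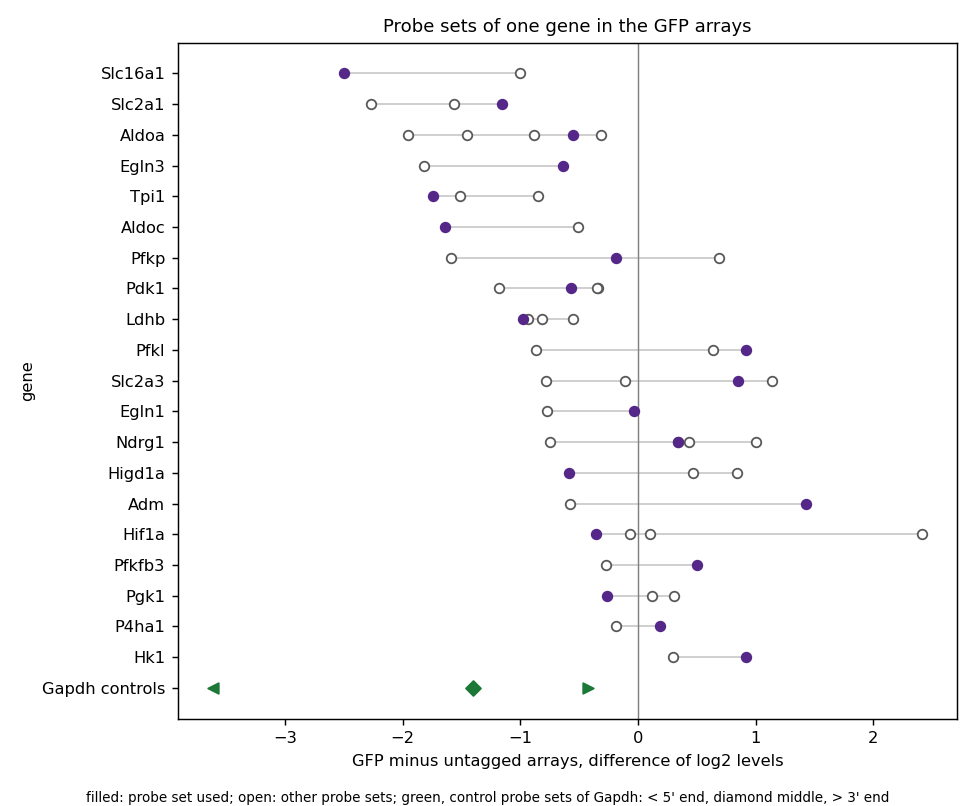
Difference of log2 level between GFP and untagged arrays (horizontal axis) for every probe set of the 20 members with more than 1, filled for the probe set used. Green marks in the last row are the Gapdh control probe sets, which fall from -0.43 at the 3′ end to -3.61 at the 5′ end.

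Other genes of the pathway, from lists set beside the members, gave no call between the tumour types either: limma called 0 of 23 further glycolysis genes, 0 of 12 genes of pyruvate entry into mitochondria, 0 of 12 genes of oxygen sensing and 0 of 27 further hypoxia-induced genes, and 0 of each had an unadjusted p under 0.05. The smallest p-values of the further glycolysis genes belonged to Tigar, a phosphatase that slows glycolysis (0.46, SE 0.25), Slc16a7 and Slc2a9, a sugar and urate transporter (0.60, SE 0.44). Those of pyruvate entry belonged to Pcx, pyruvate carboxylase (-0.40, SE 0.27), Pdk4, a kinase that inhibits pyruvate dehydrogenase (0.50, SE 0.46), and the pyruvate carrier subunit Mpc1 (-0.54, SE 0.60). Those of oxygen sensing belonged to Elob, part of the ligase that destroys Hif1a (-0.32, SE 0.24), Cited2, which competes with HIF for its coactivator (0.47, SE 0.48), and Arnt, the partner subunit of Hif1a (-0.24, SE 0.34). Those of the further hypoxia-induced genes belonged to Kdm3a, a histone demethylase (0.68, SE 0.41), Plin2 and Plod2. Slc16a7, a further lactate transporter, differed by 0.62 (SE 0.34) with carcinoma above papilloma in all arrays, at the low levels of 5.07 and 4.45. The groups nearly met, with 4.526 in carcinoma 2 and 4.505 in papilloma GFP, and carcinoma 1 stood highest at 5.97. It was 1 of the 23 genes with carcinoma above and no overlap, against 0.506% of all genes. Plod2, a collagen lysyl hydroxylase, differed by 0.92 (SE 0.60) and Plin2, a lipid droplet protein, by 0.32 (SE 0.20).

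By the GFP tag, the test called 2 of the 23 further glycolysis genes higher and 2 lower, where it called 11.9% of all genes higher and 7.93% lower. Bsg, the chaperone that carries Slc16a1 to the membrane, averaged 8.70 in the GFP and 11.10 in the untagged arrays, a coefficient of -2.40 (SE 0.35, limma adjusted p = 0.00436), near that of Slc16a1. Bpgm, which makes bisphosphoglycerate and is abundant in red cells, had 2.08 (SE 0.35) and Slc2a10, a transporter expressed in vessels, 1.90 (SE 0.29). Of the 12 genes of pyruvate entry 4 were lower, against 7.93% of all genes, and 0 higher, against 11.9%. The 4 were the carrier subunit Mpc1 (-1.48, SE 0.35), and Dlat (-0.85, SE 0.22), Dld (-0.85, SE 0.23) and Pdhb (-0.62, SE 0.17) of pyruvate dehydrogenase. Lower calls were more common among brighter genes, as given above.

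Of the 12 oxygen-sensing genes 3 were higher and 0 lower in the GFP arrays, against 11.9% and 7.93% of all genes. Epas1, the HIF subunit known from endothelium, averaged 12.74 against 8.31 (4.36, SE 1.04, limma adjusted p = 0.0289), Egln2 had 0.81 (SE 0.15) and Vhl, the recognition subunit that binds hydroxylated HIF, 0.77 (SE 0.18). Of the 27 further hypoxia-induced genes 4 were higher, against 11.9% of all genes, and 7 lower, against 7.93%. Edn1, the vasoconstrictor endothelin, averaged 9.39 against 5.82 (3.50, SE 0.26), and Plod1, a collagen lysyl hydroxylase, 9.64 against 7.16 (2.49, SE 0.30), whereas Mif, a cytokine, averaged 11.15 against 12.74 (-1.59, SE 0.16). Endothelial and fibroblast markers were higher in the same arrays, as given above.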

How the data were processed

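Expression was measured on 7 arrays named in the labels as Mouse Genome 430pm strip. The authors deposited normalized values per probe set, for which RMA and affy are given as tools without versions or roles, per the submitters' processing notes. The deposited values were taken as log2 from their range (2.72 to 14.51), and whether the 7 arrays were normalized together is not given in the sources used here. Of 45101 probe sets, 64 are controls, 34945 had exactly 1 symbol in the platform annotation of 2016, 932 had several and 9160 were unnamed.

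Carcinoma was compared with papilloma, and GFP with untagged arrays (tumour type as covariate), by limma 3.58.1 in R 4.3.3 with Benjamini-Hochberg adjustment over 18193 genes and a threshold of 0.05. The procedure was tested on simulated data with independent noise. The simulated arrays of the tumour-type comparison carried no difference by the GFP tag, unlike the real ones. That test therefore does not show how many tumour-type differences could be called in the real arrays. All members are accounted for, and values in every array were printed for the 4 smallest p per comparison and list and for 8 genes of the pathway; other pathway genes are named by their 3 smallest p. Hk1, Pfkl and Pdhb outside that rule were described after their values were seen. The members, lists and tests were chosen with earlier results of these data known. Deviations from the group means correlated at 0.476, 0.194 and 0.861 for arrays numbered 1, 2 and GFP, above the limit of 0.1 for pairs. Differently numbered untagged arrays reached 0.683, and GFP with untagged arrays ran from -0.687 to -0.501. The group means hold the GFP arrays, so the difference by the tag enters these correlations and they cannot show pairing. The labels state no pairing. Promoter sequences are RefSeq's (GRCm38.p6). Python 3.11.15 and matplotlib 3.10.9 drew the figures.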

Additional observations from a re-analysis of the deposited data

How the results depend on the processing

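Limma called 0 genes between the tumour types in every setting tried, and with the replicate block, which pairs the arrays by number and leaves carcinoma 3 without a partner, the glycolysis median was 0.14 and the hypoxia-induced median 0.11 (0 called); the block changed no call. Over these settings 23 of 33 members changed the sign of an uncalled tumour-type difference. For the GFP tag, 3601 genes were called, 60.0% of them higher, against 4201 (41.9% higher) after the arrays were shifted to a common median, 4391 (48.6%) after quantile normalization, 2553 (48.1%) without dim genes and 6819 (51.6%) with array weights. The common median moved the median coefficient of all genes from -0.05 to -0.29. It shifts the coefficient of every gene by the same amount, so it could not change where the 5 called members lay relative to that median. Array weights called 8 glycolysis genes lower and 1 higher, and 2 hypoxia-induced genes lower and 1 higher. Of the hypoxia-induced genes, 2 were called lower after the shift, after quantile normalization and with a robust trended prior. Only 1 was called lower without dim genes, and 1 with probe sets free of the _x_at, _s_at and _a_at endings preferred. With that choice of probe sets the median of the hypoxia-induced genes was -0.48. With the mean of all probe sets Aldoa was called. Slc2a3 turned to -0.78 as given above. Leaving out 1 array gave 861 to 3955 called genes, 1 to 5 glycolysis genes lower and 0 to 1 higher, and 0 to 1 hypoxia-induced genes lower and 0 to 1 higher, with the fewest without carcinoma GFP. A tag by tumour type term, added after seeing the data, called 0 genes (389 at an unadjusted p under 0.05, 0 of 33 members); with 1 GFP array per tumour type its spread comes from the untagged arrays alone, so the count does not show that the tag acted alike in both. The causes were not tested, beyond the loss of arrays or genes itself. Slc2a3, Eno2, Slc16a3 and Pfkfb4 lay below the median gene in signal and were left out with the dim genes.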
